A study of Homo sapiens with 24 samples.

Results

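In THP1 macrophages, the mean responses of 36 genes to PTPN6 knockdown ran in opposite directions in the wild-type and the CD33-knockout line. They were chosen by measured values: CPM (the read count of a gene scaled to a fixed library total) were averaged per group, and the log2 ratio of shPTPN6 to shCTRL was taken after adding 0.5 CPM to each mean. A gene was a member where its mean reached 5 CPM in at least 1 of the 4 groups and the ratio was 0.8 or more in one line and -0.8 or less in the other. Of 60617 genes, 11810 reached 5 CPM, and 26 of these (0.220%) were higher after knockdown in wild type (WT) and lower in CD33 knockout (CD33KO), while 10 (0.0847%) were lower in WT and higher in CD33KO. Since these ratios chose the genes, the members' own responses are given below as a description; where the fit's calls for them are counted, the share of all genes called stands beside the count and nothing is read from it.

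THP1 is a human monocytic leukaemia line that becomes macrophage-like with the phorbol ester PMA. Group WT shCTRL was wild-type THP1 transduced with empty pLKO.1 vector, WT shPTPN6 was wild-type THP1 with a hairpin against PTPN6, CD33KO shCTRL was CD33-knockout THP1 with empty vector, and CD33KO shPTPN6 was CD33-knockout THP1 with the hairpin. All 4 groups therefore share a lentiviral vector, exposure to virus made in HEK-293FT cells for 24 hours, selection with 1 µg/ml puromycin, and differentiation with 10 ng/ml PMA for 48 hours followed by 48 hours without it. The control vector carries no hairpin, 1 hairpin sequence was used, and the labels do not say how many knockout clones the CD33KO cells come from. Of 24 labelled samples, 23 libraries were analysed, 6 per group and 5 in CD33KO shPTPN6, whose replicate 2 is not analysed here. Values after ± are SDs over these libraries. The labels do not say that the libraries came from separate cultures, so every SD and p-value measures the spread between libraries, which may be technical.

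CD33 is a sialic acid-binding receptor of myeloid cells whose cytoplasmic tail carries an inhibitory tyrosine motif. Once phosphorylated, such motifs recruit SHP-1, the tyrosine phosphatase that PTPN6 encodes, which removes phosphate from activating receptors and kinases. The design thus crosses loss of the receptor with loss of one of its effectors. Genes of macrophages that respond to such signalling include chemokines, growth factors and matrix proteins, and several members belong to these families. Whether this signalling acts on the members was not tested.

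The hairpin's target is shown because both knockdown responses rest on this one sequence. It lies on chromosome 12 at chr12:6959963-6959983 (GRCh38, plus strand), inside 1 exon, and matched 7 annotated transcripts in GENCODE 29, all of PTPN6.
PTPN6 hairpin target: cgacatgctcatggagaacat

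PTPN6 itself was measured at 37.6 to 54.0 CPM in WT shCTRL and 8.51 to 12.7 in WT shPTPN6, and at 32.7 to 44.2 CPM in CD33KO shCTRL and 4.64 to 11.4 in CD33KO shPTPN6, with no overlap in either line. CD33 was at 41.2 to 49.9 and 79.2 to 94.9 CPM in the WT groups and at 14.5 to 27.5 CPM in the CD33KO libraries; the 3' tags need not lie in the disrupted part, so this does not check the knockout. Library totals ran from 3318001 to 6269304 counts in WT and from 2024032 to 3749258 in CD33KO. Transcripts named as mitochondrial took 5.86 to 6.54% of counts in WT shCTRL, 7.85 to 8.70% in WT shPTPN6, 6.53 to 7.13% in CD33KO shCTRL and 6.36 to 6.55% in CD33KO shPTPN6. The summed CPM of 10 macrophage markers, all detected in every group, was 2007 to 2333 and 3732 to 3870 with shCTRL and shPTPN6 in WT and 1867 to 2070 and 2966 to 3229 in CD33KO, so the sum was higher with knockdown in both lines. In CD33KO the rise of this sum with knockdown was carried by CD14 (611 to 1253 CPM), CSF1R (124 to 414) and TYROBP (347 to 572). There, 5 of the 10 markers, CTSB, ITGAM, FCGR2A, CD163 and MRC1, had lower means with knockdown. None of the 36 members is in a marker list. The summed level of 13 lymphoid markers, led by GNLY and TRAC, was 753 to 862 and 216 to 242 CPM in WT and 683 to 760 and 349 to 393 in CD33KO, and that of 14 fibroblast and endothelial markers, led by TIE1 and PDGFRA in the CD33KO control, was 47.9 to 90.7 and 24.4 to 75.1 in WT and 100 to 126 and 56.1 to 124 in CD33KO, where the vectors overlapped in both lines. In WT the sum of 11 dendritic cell markers was 70.8 to 80.5 CPM with shCTRL and 26.8 to 40.3 with shPTPN6. In CD33KO it was 60.9 to 82.7 and 21.6 to 28.8 CPM. The fall of this sum was carried by FLT3 in WT (63.7 to 15.2 CPM) and by CCR7 in CD33KO (51.8 to 8.78). CD1A and CD1C went the other way, with higher means under knockdown in both lines (in WT 1.33 to 4.69 and 3.17 to 10.6 CPM). The summed level of 10 mast cell, basophil and eosinophil markers was 7.72 to 9.59 and 0.814 to 2.42 CPM in WT. In CD33KO it was 4.39 to 10.4 and 2.79 to 5.93 CPM. Of 12 epithelial and HEK-293 markers, which summed to 49.3 to 70.0 and 64.6 to 105 CPM in WT and to 106 to 141 and 86.4 to 111 in CD33KO, CDH1 and CDH2 made up most. The part of these differences in the members' values was not tested. In bulk RNA, fewer cells of a type and less RNA per cell cannot be told apart.

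Opposite responses of this size were uncommon among all genes. A ratio of 0.8 or more was reached by 642 genes (5.44%) in WT and 370 (3.13%) in CD33KO, and one of -0.8 or less by 1429 (12.1%) and 1174 (9.94%). In both lines together, 187 genes (1.58%) passed on the higher side and 631 (5.34%) on the lower side, against 36 (0.305%) in opposite directions. The median ratio of all 11810 genes was -0.07 in WT and -0.08 in CD33KO.

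**Figure D1:**
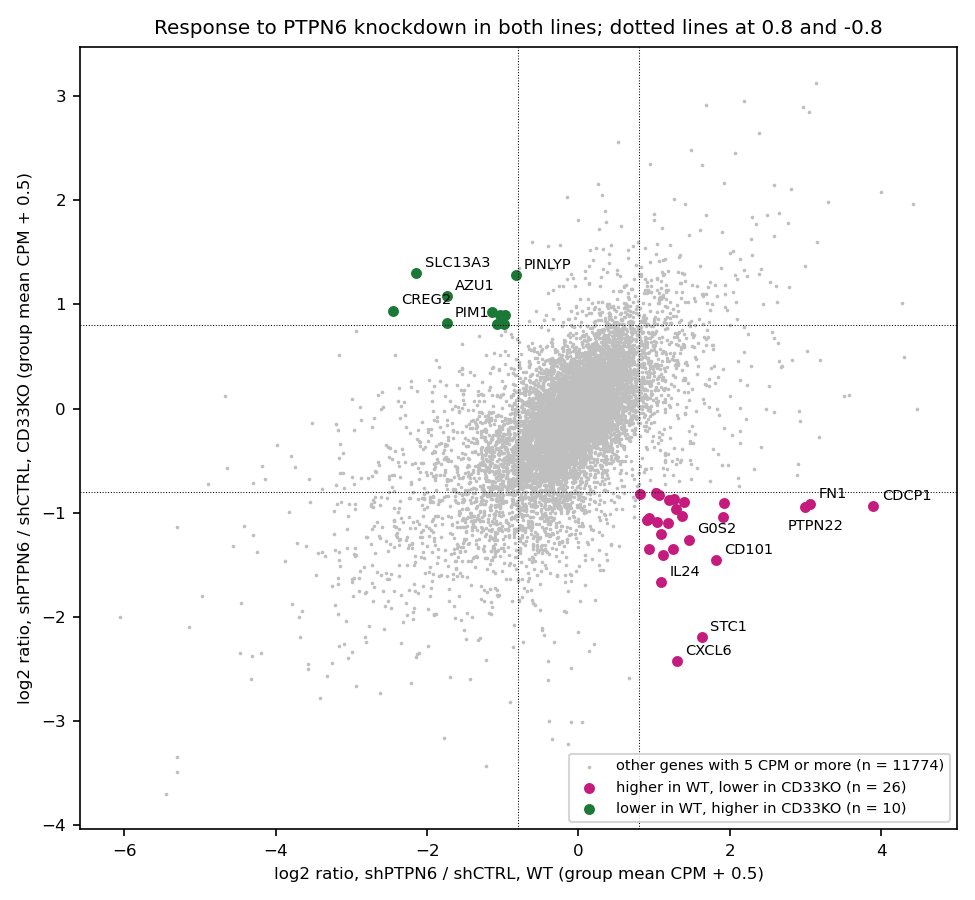
Each point is a gene with a mean of 5 CPM or more in at least 1 group (n = 11810), with the log2 ratio of shPTPN6 to shCTRL in WT on the horizontal axis and in CD33KO on the vertical axis (group mean CPM + 0.5); dotted lines mark 0.8 and -0.8. The 26 genes higher in WT and lower in CD33KO lie at the lower right, out to CDCP1 at 3.90 and down to CXCL6 at -2.43, and the 10 of the other direction lie at the upper left.

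The 26 genes that were higher after knockdown in WT and lower in CD33KO included chemokines, other secreted factors, receptors and enzymes. By what each product is known to be, 11 are secreted, 7 sit at the cell surface, 6 act inside the cell and 2 are noncoding transcripts; this sorting was made after the members were known, and all other genes were not sorted. Their ratios ran from 0.82 to 3.90 in WT (median 1.26) and from -2.43 to -0.81 in CD33KO (median -1.05). With the control vector, 19 of the 26 were higher in CD33KO than in WT, by a median log2 difference of 2.05 over all 26, and 17 were under 5 CPM in WT shCTRL. Under knockdown only 11 were higher in CD33KO and 15 were lower, with a median difference of -0.64. The order of the lines was exchanged in 8 genes, and the gap between the lines was smaller under knockdown in 15 and larger in 10. The 10 genes of the other direction mirrored this: 7 were lower in CD33KO than in WT with the control vector and 9 were higher under knockdown, with 6 exchanges of order. These same libraries entered the rule, so these differences between the lines are partly fixed by the choice of genes.

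**Figure D2:**
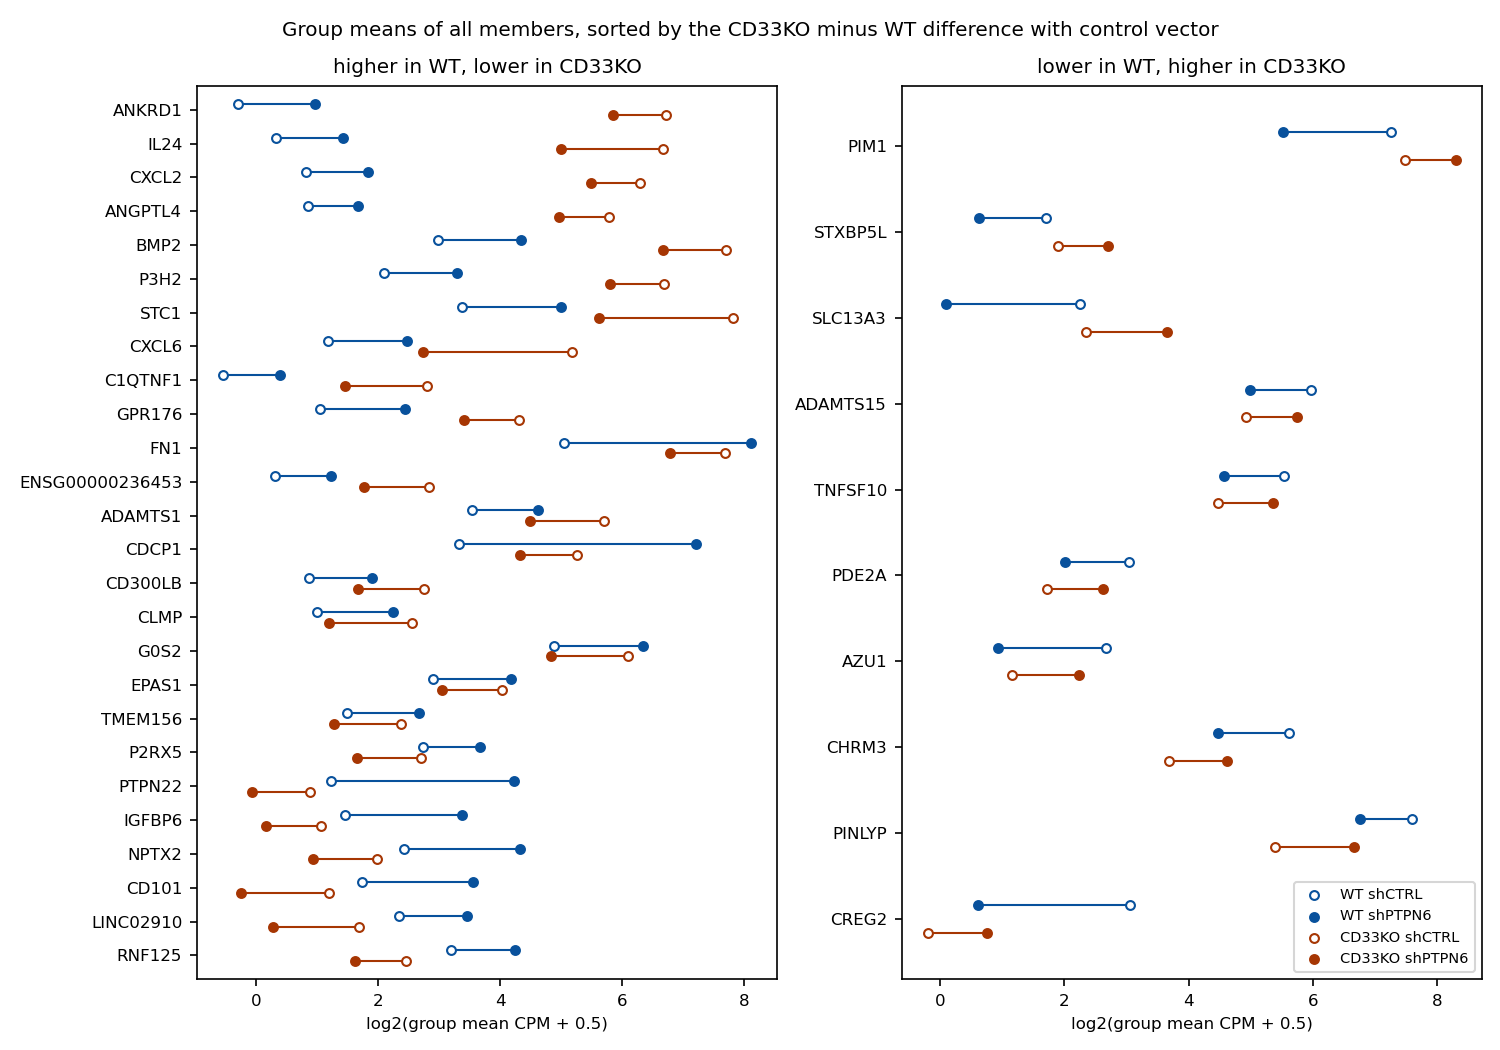
Group means of all 36 members on a log2(CPM + 0.5) scale, one row per gene, blue for WT and brown for CD33KO, open for shCTRL and filled for shPTPN6, sorted by the difference between the lines with the control vector. The lines of each gene run in opposite directions by the rule; ANKRD1, IL24 and CXCL2 start far apart with the control vector and stay apart, while in G0S2 and EPAS1 both lines span one range.

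Among the secreted products, the chemokines CXCL6 and CXCL2 attract neutrophils through CXCR2. CXCL6 (chromosome 4, 73836497 to 73849064, plus strand) was measured at 1.07, 1.86 and 2.34 CPM (lowest, median and highest library) in WT shCTRL and at 3.01, 5.45 and 6.46 in WT shPTPN6. In CD33KO shCTRL it was at 23.3, 39.1 and 42.5 CPM, and in the 5 libraries of CD33KO shPTPN6 at 7.89, 6.94, 4.57, 3.95 and 7.36 CPM. The knockdown groups of the 2 lines, which met at 5.03 ± 1.26 and 6.14 ± 1.76 CPM, overlapped, and every CD33KO shCTRL library was above every other library of the gene; the log2 ratios were 1.30 and -2.43. CXCL2 (chromosome 4, 74097035 to 74099293, minus strand) was at 0.937, 1.06 and 2.15 CPM in WT shCTRL and 1.51, 2.91 and 4.79 in WT shPTPN6, so that these groups overlapped. It was at 47.6, 80.4 and 91.2 CPM in CD33KO shCTRL and at 38.1, 52.5, 39.9, 48.4 and 41.5 in CD33KO shPTPN6, and these overlapped through 1 control library. Its ratios of 1.03 and -0.81 lie close to the threshold.

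IL24, a cytokine of the IL-10 family, was low in WT. It was at 0, 0.688 and 1.40 CPM in WT shCTRL and 0.638, 2.38 and 3.11 in WT shPTPN6, which overlap. In CD33KO shCTRL it reached 87.8, 103 and 106 CPM, and in CD33KO shPTPN6 34.4, 31.7, 29.9, 24.2 and 36.0 CPM, all below the control libraries. BMP2, a bone morphogenetic protein of the TGF-beta superfamily, had the same layout at a higher level. Its libraries were at 5.26, 7.48 and 8.90 CPM in WT shCTRL, 12.9, 20.0 and 24.4 in WT shPTPN6, and 161, 208 and 256 in CD33KO shCTRL. The CD33KO shPTPN6 libraries were at 88.7, 95.0, 108, 118 and 97.2 CPM, so BMP2 groups did not overlap in either line (ratios 1.37 and -1.03).

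STC1, which encodes the secreted glycoprotein stanniocalcin-1, had the largest response when the weaker of its 2 ratios is taken. It was at 9.23, 9.73 and 10.7 CPM in WT shCTRL and 21.2, 31.7 and 41.2 in WT shPTPN6. In CD33KO shCTRL it was at 183, 233 and 246 CPM and in CD33KO shPTPN6 at 42.2, 54.6, 45.7, 53.9 and 44.9. The mean was thus 3.20 times the control in WT and 0.215 times the control in CD33KO, and the ratio was 1.63 against -2.20. No library of one vector crossed into the other in either line.

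FN1 (chromosome 2, 215360440 to 215436172, minus strand) encodes fibronectin, an extracellular matrix protein that cells bind through integrins, and was the most abundant member of this direction by its mean over the groups. It was at 25.1, 33.6 and 37.2 CPM in WT shCTRL and at 247, 273 and 302 in WT shPTPN6. In CD33KO shCTRL it stood at 158, 216 and 230 CPM, and in CD33KO shPTPN6 at 122, 103, 103, 102 and 114. FN1 exchanged order: CD33KO was above WT with the control vector and below it under knockdown. ADAMTS1, a secreted protease that cleaves matrix proteoglycans, had means of 11.1 ± 1.95 and 24.1 ± 3.81 CPM in WT and of 51.4 ± 12.8 and 21.9 ± 2.16 CPM in CD33KO, so the 2 knockdown groups lay in one range. NPTX2, a secreted pentraxin, had its lower means in CD33KO with either vector, at 4.82 ± 2.02 and 19.6 ± 2.96 CPM in WT and 3.44 ± 1.50 and 1.41 ± 0.894 in CD33KO. ANGPTL4, a secreted inhibitor of lipoprotein lipase, was nearest the threshold with CXCL2, at 1.30 ± 0.561 and 2.68 ± 0.697 CPM in WT and 54.3 ± 8.97 and 30.5 ± 4.81 in CD33KO (ratios 0.82 and -0.82). C1QTNF1, a secreted protein with a C1q-like domain, and IGFBP6, which binds insulin-like growth factors, completed the secreted group and are named outside the rule for names. C1QTNF1 was at 0.185 ± 0.178 and 0.804 ± 0.449 CPM in WT, a level of few reads, and at 6.45 ± 2.56 and 2.22 ± 1.00 CPM in CD33KO.

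At the cell surface, CDCP1, a transmembrane glycoprotein phosphorylated by Src family kinases, had the largest WT ratio of all members. It was at 7.72, 9.70 and 11.3 CPM in WT shCTRL and 140, 146 and 163 in WT shPTPN6, a ratio of 3.90. In CD33KO shCTRL it was at 31.2, 39.7 and 42.1 CPM and in CD33KO shPTPN6 at 18.1, 20.4, 20.4, 22.2 and 16.3, a ratio of -0.94. Both pairs of groups were apart, and CD33KO was above WT with the control vector but below it under knockdown. CD101, an immunoglobulin superfamily receptor with inhibitory function on myeloid and T cells, was at 2.82 ± 0.969 and 11.2 ± 2.29 CPM in WT. In CD33KO it was at 1.79 ± 0.639 CPM with the control vector, while the 5 knockdown libraries gave 0, 0.867, 0.415, 0 and 0.387 CPM. CLMP, an adhesion molecule of epithelial junctions, was at 1.48 ± 0.768 and 4.23 ± 0.664 CPM in WT and 5.35 ± 1.28 and 1.79 ± 0.790 in CD33KO. TMEM156, a transmembrane protein, was at 2.31 ± 0.908 and 5.87 ± 2.00 CPM in WT and 4.66 ± 2.38 and 1.90 ± 1.25 in CD33KO, with overlap in CD33KO. These 3 are low in at least one line, where 1 read is worth up to 0.494 CPM.

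Further surface genes, named after their values were seen, were CD300LB, an activating receptor of myeloid cells, P2RX5, an ATP-gated ion channel, and GPR176, an orphan G protein-coupled receptor. Of these GPR176 was the most even, with CD33KO shCTRL libraries between 17.6 and 19.9 CPM and CD33KO shPTPN6 libraries at 11.1, 9.54, 8.72, 10.9 and 10.1. P2RX5 had the smallest difference between the lines with the control vector, at 6.17 ± 0.669 CPM in WT and 5.96 ± 0.894 in CD33KO. Under knockdown it was at 12.2 ± 1.86 and 2.62 ± 1.83 CPM.

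Inside the cell, G0S2 encodes an inhibitor of the triglyceride lipase ATGL. It was at 22.8, 29.5 and 35.0 CPM in WT shCTRL and 66.6, 78.3 and 102 in WT shPTPN6. In CD33KO the order was the reverse, at 48.5, 71.0 and 75.1 CPM with the control vector and at 38.1, 31.7, 24.5, 16.8 and 29.1 under knockdown. The means of opposite groups were near each other, with 28.8 ± 4.29 CPM in WT shCTRL against 28.0 ± 7.96 in CD33KO shPTPN6. EPAS1, the hypoxia-inducible factor HIF-2 alpha, had a like layout, at 6.90 ± 1.13 and 17.6 ± 4.34 CPM in WT and 15.7 ± 1.92 and 7.76 ± 0.611 in CD33KO, and was apart in both lines. ANKRD1, a cardiac ankyrin repeat protein and a known target of the YAP coactivator, had the widest gap between the lines, at 0.313 ± 0.233 and 1.45 ± 0.355 CPM in WT and 104 ± 11.6 and 56.8 ± 6.58 CPM in CD33KO. P3H2, a prolyl hydroxylase of collagens, was at 3.74 ± 1.11 and 9.24 ± 1.16 CPM in WT and 102 ± 4.14 and 55.3 ± 3.65 in CD33KO. PTPN22, a tyrosine phosphatase that restrains signalling of immune receptors, was at 1.83 ± 0.793 CPM in WT shCTRL and 18.1 ± 1.10 in WT shPTPN6, and its 18.1 CPM was well above the 0 to 2.26 CPM seen over both CD33KO groups. Its means of 1.33 ± 0.709 CPM in CD33KO shCTRL and 0.448 ± 0.308 in CD33KO shPTPN6 rest on few reads, and these groups overlapped. RNF125, an E3 ubiquitin ligase of antiviral signalling, was at 8.58 ± 1.16 and 18.4 ± 2.65 CPM in WT and 4.96 ± 2.49 and 2.57 ± 1.18 in CD33KO. EPAS1, ANKRD1, P3H2, PTPN22 and RNF125 were chosen for naming after their values were seen. Of the noncoding pair, LINC02910 was at 4.56 ± 0.818 and 10.5 ± 2.88 CPM in WT and 2.69 ± 1.10 and 0.702 ± 0.412 in CD33KO, and the other has no symbol.

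**Figure D3:**
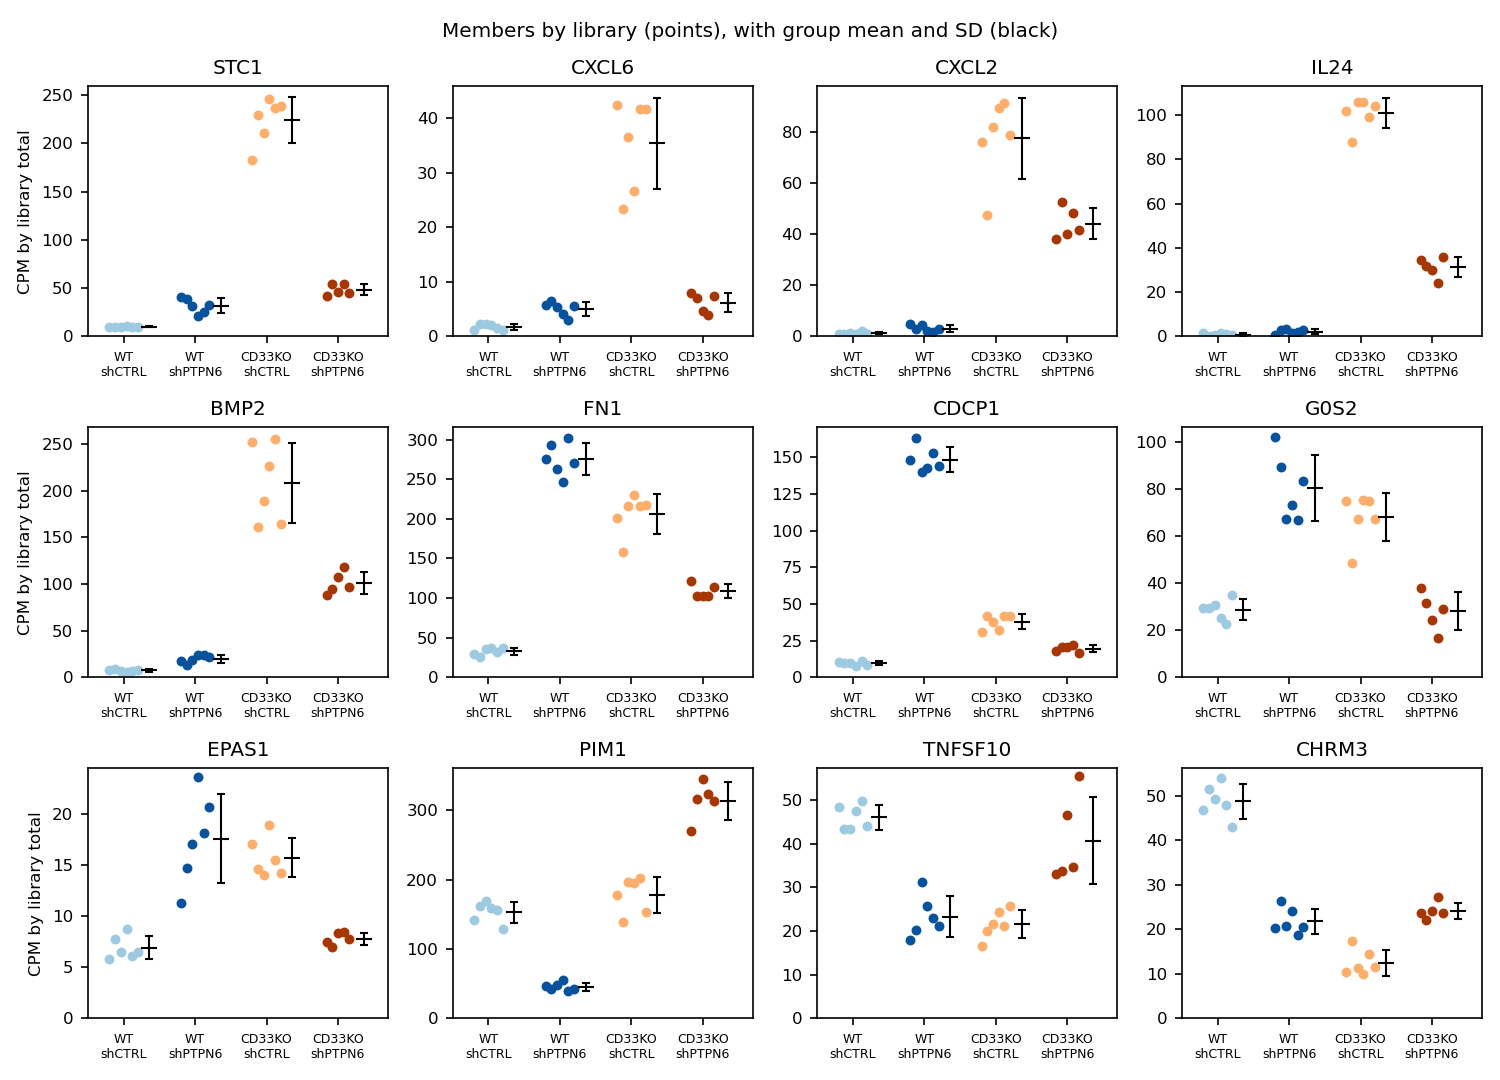
CPM of 12 members in each library (points, one axis per gene), with the group mean and SD in black, for WT shCTRL, WT shPTPN6, CD33KO shCTRL (n = 6 each) and CD33KO shPTPN6 (n = 5). STC1, CXCL6, BMP2, FN1, CDCP1, G0S2 and EPAS1 separate the vectors in both lines in one direction and PIM1, TNFSF10 and CHRM3 in the other, while CXCL2 overlaps in both.

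The 10 genes of the opposite direction, lower after knockdown in WT and higher in CD33KO, had ratios from -2.45 to -0.83 in WT (median -1.11) and from 0.81 to 1.30 in CD33KO (median 0.91). All are protein coding; 4 encode secreted proteins, 3 surface proteins and 3 proteins inside the cell. PIM1 (chromosome 6, 37170203 to 37175426, plus strand), a serine/threonine kinase induced by JAK-STAT signalling, was the most abundant. Its libraries were at 129, 157 and 170 CPM in WT shCTRL and at 39.2, 44.8 and 54.8 in WT shPTPN6. In CD33KO it was at 139, 187 and 202 CPM with the control vector and at 270, 317, 346, 324 and 313 under knockdown. The control groups of the lines overlapped, and the knockdown groups were far apart (45.5 ± 5.61 against 314 ± 27.8 CPM).

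At the surface, TNFSF10 encodes the death receptor ligand TRAIL. It was at 43.3, 45.8 and 49.8 CPM in WT shCTRL, 18.0, 22.1 and 31.3 in WT shPTPN6 and 16.6, 21.4 and 25.7 in CD33KO shCTRL. The CD33KO shPTPN6 libraries were at 33.0, 33.8, 46.5, 34.6 and 55.4 CPM, above every library of their control. CHRM3, the M3 muscarinic acetylcholine receptor, was at 42.9, 48.5 and 54.0 CPM in WT shCTRL, 18.7, 20.6 and 26.4 in WT shPTPN6 and 9.86, 11.4 and 17.4 in CD33KO shCTRL. With knockdown in CD33KO it was at 23.7, 22.1, 24.1, 27.2 and 23.6 CPM, so the lines differed with the control vector and overlapped with the hairpin. SLC13A3, a sodium-coupled carrier of dicarboxylates such as succinate, was at 3.22, 4.46 and 4.92 CPM in WT shCTRL and at 0.241, 0.419 and 1.51 in WT shPTPN6. It was at 3.20, 4.19 and 7.32 CPM in CD33KO shCTRL and 14.9, 16.0, 10.4, 11.4 and 7.75 in CD33KO shPTPN6, giving this direction's largest CD33KO ratio (1.30, against -2.14 in WT).

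Among the secreted products, PINLYP encodes an inhibitor of phospholipases. It was at 180, 185 and 230 CPM in WT shCTRL, 93.6, 112 and 120 in WT shPTPN6, 34.3, 42.0 and 49.3 in CD33KO shCTRL and 125, 89.3, 84.3, 110 and 96.1 in CD33KO shPTPN6. The means under knockdown were alike in level, at 108 ± 10.5 and 101 ± 16.5 CPM. ADAMTS15, a metalloprotease of the matrix, was at 62.0 ± 5.55 and 31.3 ± 3.79 CPM in WT and 29.9 ± 3.50 and 52.9 ± 3.92 in CD33KO, which places opposite groups of the 2 lines near one another. AZU1 encodes azurocidin, an antimicrobial protein of neutrophil granules, and was at 5.85 ± 0.760 and 1.41 ± 0.823 CPM in WT and 1.74 ± 0.843 and 4.23 ± 1.79 in CD33KO. CREG2, a secreted glycoprotein, was at 7.78 ± 1.41 and 1.02 ± 0.712 CPM in WT, whereas the means of 0.374 ± 0.328 and 1.18 ± 0.755 in CD33KO rest on few reads. Inside the cell, PDE2A, a phosphodiesterase of cyclic nucleotides, was at 7.75 ± 1.31 and 3.54 ± 0.978 CPM in WT and 2.80 ± 0.892 and 5.63 ± 1.65 in CD33KO. STXBP5L, a syntaxin-binding protein, was at 2.75 ± 0.741 and 1.05 ± 0.221 CPM in WT and 3.22 ± 1.16 and 6.00 ± 0.819 in CD33KO.

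How far the libraries of a member kept apart is given beside the same count over all genes. Of the 26 genes higher in WT, the shPTPN6 and shCTRL libraries did not overlap for 20 in WT and 16 in CD33KO, in both lines for 13 and in neither for 3. Over all 11810 genes, groups were apart with knockdown higher in WT for 16.2% and with knockdown lower in CD33KO for 17.2%. Of the 10 genes of the other direction, groups were apart for 10 in WT and 6 in CD33KO, against 24.0% of all genes with knockdown lower in WT and 9.62% with knockdown higher in CD33KO. Since the ratios chose the members, nothing is read from these counts.

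All 36 members passed the filter on low counts of the fit over all libraries (13098 genes, edgeR quasi-likelihood, adjusted p under 0.05). For the 26, knockdown in WT was called higher for 26 (30.2% of all genes were) and knockdown in CD33KO lower for 24 (21.6% of all), PTPN22 and IGFBP6 missing the threshold. For the 10, knockdown in WT was called lower for 10 (30.4% of all) and knockdown in CD33KO higher for 9 (20.5% of all), without CREG2. Calls in both lines in the direction of the rule numbered 24 of 26 and 9 of 10, where 1.52% of all genes were called higher in WT and lower in CD33KO and 1.55% the other way. The difference between the lines in the knockdown response (CD33KO minus WT) was called lower for 26 of 26 and higher for 10 of 10, against 13.9% and 14.5% of all genes. Its median log2 value was -2.84 for the 26 and 2.19 for the 10, and 0.00 over all genes. The rule used these contrasts, so nothing is read from the counts. Among single members, this difference was -4.93 (SE 0.15) for CDCP1, -4.04 (SE 0.32) for CXCL6, -3.92 (SE 0.16) for STC1, 4.34 (SE 0.45) for SLC13A3 and 2.56 (SE 0.12) for PIM1.

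Between the lines with the control vector, 19 of the 26 were called higher in CD33KO and 2, LINC02910 and RNF125, lower, beside 28.3% and 28.4% of all genes. With knockdown in both lines, 9 of the 26 were called higher in CD33KO and 13 lower, beside 29.0% and 27.5% of all genes. For the 10, 1 (PIM1) was called higher and 7 lower with the control vector, and 7 higher and none lower under knockdown. The median log2 difference of CD33KO to WT went from 2.28 with the control vector to -0.61 under knockdown for the 26 and from -1.18 to 0.85 for the 10, while the median over all genes was -0.01 and 0.01. In all these counts the libraries are those that chose the members.

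Of the 17 gene lists, the one with the most members was the cytokines and growth factors, a list of 61 genes of which 43 were tested and 3 (IL24, CXCL2 and TNFSF10) are members. After knockdown in WT 19 of the 43 rose and 14 fell (edgeR, adjusted p under 0.05), beside 30.2% and 30.4% of all genes, with a median log2 change of 0.12. In CD33KO 9 rose and 23 fell, beside 20.5% and 21.6% of all genes, with a median of -0.36. Both medians over all genes were within 0.01 of 0. With the control vector, 33 of the 43 were called higher in CD33KO than in WT and 6 lower (median 2.73), beside 28.3% and 28.4% of all genes. Under knockdown 34 were called higher and 4 lower (median 1.84), beside 29.0% and 27.5% of all genes. Opposite calls in the 2 lines were made for 11 of the 43 (25.6%), compared with 402 of 13098 genes (3.07%), and 9 of these 11 were higher in WT and lower in CD33KO. Of the 11, 8 are not members, and the 3 members were chosen by the rule for opposite responses. The list is also shown because it holds members, so the share of 25.6% is partly fixed by the choice. The list was chosen with earlier results known, so this share is a description.

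**Figure D4:**
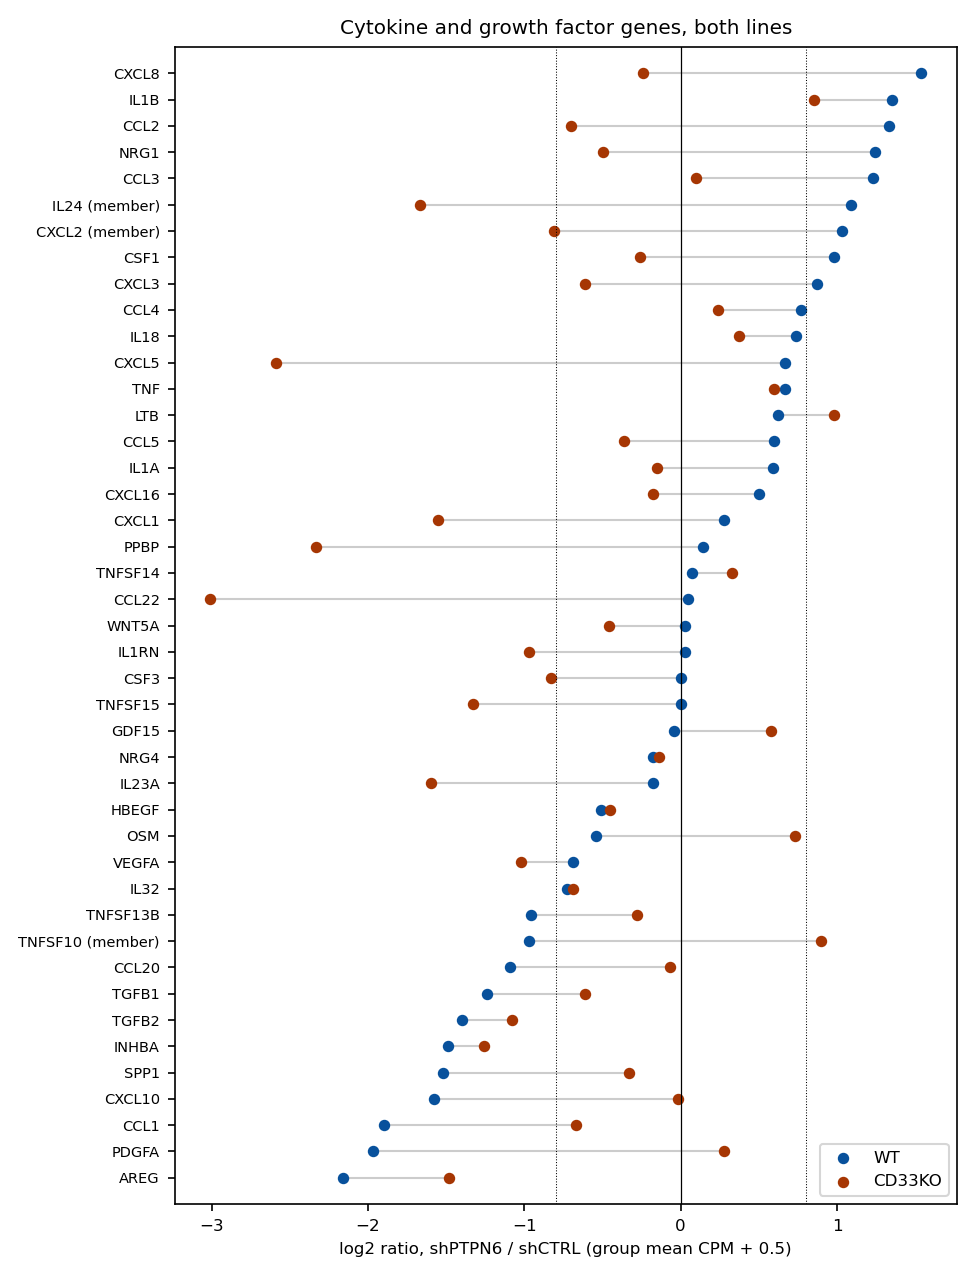
Log2 ratio of shPTPN6 to shCTRL (group mean CPM + 0.5) in WT (blue) and CD33KO (brown) for the 43 tested cytokine and growth factor genes, sorted by the WT ratio, with dotted lines at 0.8 and -0.8. IL24 and CXCL2 lie past both lines on opposite sides and TNFSF10 the other way round; CXCL1, CXCL3, CXCL5, CCL2 and NRG1 straddle 0 without reaching both thresholds, and IL1B lies above 0 in both lines.

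The 8 opposite genes of this list that are not members fell short of the threshold in at least one line. CCL2, a chemokine for monocytes, rose in WT from 8.25 to 21.5 CPM (log2 change 1.46, SE 0.13, adjusted p = 6.75e-19 with edgeR) and fell in CD33KO from 58.7 to 36.0 CPM (-0.62, SE 0.11, adjusted p = 2.12e-06 with edgeR). NRG1, a ligand of ERBB receptors, rose in WT from 7.54 to 18.5 CPM (1.37, SE 0.12) and fell in CD33KO from 123 to 87.1 CPM (-0.42, SE 0.08). CXCL5 rose in WT from 0.992 to 1.88 CPM (1.06, SE 0.34, adjusted p = 0.00482 with edgeR) and fell in CD33KO from 39.5 to 6.13 CPM (-2.57, SE 0.19). CXCL1, CXCL3, CCL5 and IL1RN were the others of this direction. IL1RN changed little in WT, from 341 to 348 CPM (0.12, SE 0.05, adjusted p = 0.0273 with edgeR). In CD33KO it fell from 2107 to 1078 CPM (-0.88, SE 0.05). PDGFA, a growth factor for mesenchymal cells, went with TNFSF10: it fell in WT from 745 to 190 CPM (-1.89, SE 0.04) and rose in CD33KO from 511 to 618 CPM (0.36, SE 0.05). By contrast IL1B, the inflammatory cytokine interleukin 1 beta, rose in both lines, from 319 to 814 CPM in WT (1.43, SE 0.06) and from 3346 to 6048 CPM in CD33KO (0.94, SE 0.06). INHBA and AREG fell in both. Opposite responses were not shared by the whole list.

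CXCL6 and CXCL2 lie 247970 bases apart in the chemokine cluster of chromosome 4. The stretch from CXCL8 to CXCL2, looked at because it holds both, has 16 annotated genes in the count table, of which 7 reached 5 CPM: CXCL8, CXCL6, CXCL1, PPBP, CXCL5, CXCL3 and CXCL2. Their ratio was above 0 in WT for 7 of 7 and below 0 in CD33KO for 7 of 7, 2 being members, whose signs the rule fixed, and 5 not, and of all 11810 genes 1744 had these signs. PPBP, not a member, reached 5 CPM only in CD33KO shCTRL, so the filter fixed the sign of its CD33KO ratio. The count of 7 is therefore a description. CXCL8, the most abundant, was at 89.3 and 261 CPM in WT (log2 change 1.63, SE 0.19, adjusted p = 1.73e-07 with edgeR) and at 1730 and 1463 CPM in CD33KO (-0.16, SE 0.17, adjusted p = 0.491 with edgeR). In CD33KO shCTRL, replicate 2 of CXCL8 was at 832 CPM and the other libraries were at 1672 to 2227 CPM. All CD33KO shPTPN6 libraries lay between these, at 1383 to 1531 CPM. Whether the missing call in CD33KO depends on replicate 2 was not tested. CXCL1 rose in WT from 4.85 to 6.00 CPM (0.44, SE 0.17, adjusted p = 0.0226 with edgeR) and fell in CD33KO from 142 to 48.3 CPM (-1.48, SE 0.09). PPBP did not pass in WT (0.27, SE 0.22, adjusted p = 0.285 with edgeR) and fell in CD33KO from 17.4 to 3.07 CPM (-2.39, SE 0.26). Near-identical stretches among the CXCL1, CXCL2 and CXCL3 transcripts could let reads be divided between them, which makes their separate values uncertain.

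The other lists gave less. Of 52 adhesion, matrix and matrix protease genes, 50 were tested and FN1 is a member; 19 rose and 19 fell in WT, where 30.2% and 30.4% of all genes did, 14 rose and 20 fell in CD33KO, where 20.5% and 21.6% of all genes did, and 3 (6.00%, against 3.07% of all genes) were called in opposite directions. These 3 are FN1, which the rule chose, and 2 genes that are not members. Of the 2, PLAUR, the urokinase receptor, fell in WT from 659 to 320 CPM and rose in CD33KO from 1268 to 1814 CPM (edgeR, adjusted p under 0.05). Of 14 tested NADPH oxidase and myeloid granule genes, 12 rose in WT and 2 fell, beside 30.2% and 30.4% of all genes. In CD33KO 8 rose with none lower, beside 20.5% and 21.6% of all genes. AZU1, which the rule chose, was the only one called in opposite directions (7.14%, against 3.07% of all genes). CYBB, the oxidase's catalytic subunit, rose in both lines (1.77, SE 0.05 in WT and 3.05, SE 0.08 in CD33KO). Of 17 lists, 14 held no member, and 31 of the 36 members are in none. The lists do not hold every gene of a family. CXCL6, BMP2, ADAMTS1 and ADAMTS15 are in none, so members per list are not members per family.

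Promoter windows from 250 bases before to 50 after the annotated start were available for 27 of the 36 members (RefSeq, GRCh38.p14; the first window listed per gene). In all, 10 short motifs were searched on both strands as a description, and no pattern contains another. GGGANTTTC, a form of the NF-kB site, was found in 2 of the 19 windows of genes higher in WT (10.5%), in 0 of 8 of the other direction, and in 354 of all 27305 windows (1.30%). Both windows belong to the chemokines, and the matches, in capitals, are shown because they carry the same 9 letters in a pair of members from one cluster. The CXCL6 stretch is chr4:73836578-73836606 on the plus strand and the CXCL2 stretch is chr4:74099255-74099283 on the minus strand, both of GRCh38.p14.
CXCL6: cctgagttcaGGGAATTTCcccagcatcc
CXCL2: ctggagctccGGGAATTTCcctggcccgg

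Counted from the RefSeq starts on which the windows are built, which lie inside the longer GENCODE 29 bounds given above, the stretches run from 100 to 72 bases before the start of CXCL6 and from 88 to 60 before that of CXCL2. TGANTCA, the AP-1 site, was found in 2 of 19 windows (10.5%) and 0 of 8, against 7.76% of all windows; the 2 were TMEM156 and ANKRD1. GAGGAAG, a PU.1 core, was in 4 of 19 (21.1%) and 0 of 8 against 13.4% of all, and TATAAA in 4 of 19 (21.1%) and 1 of 8 (12.5%) against 3264 of all 27305 windows. The other patterns were GAAANNGAA (interferon response), TTGCNNAA (C/EBP), GCGTGGGCG (EGR), GGGGCGGGG (SP1), CACGTG (E-box) and TGTGGTT (RUNX), each found in at most 3 of the 19 windows and 2 of the 8. A match is not a site in use, and a window without one says nothing of the factor.

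The 36 members lie on 16 chromosomes, and the threshold cuts through a continuum. Just inside it were CXCL2 and ANGPTL4 on one side and STXBP5L and ADAMTS15 (both 0.81 in CD33KO) on the other. Just outside were LINC01605 (1.00 and -0.77), a gene with no symbol (0.75 and -0.88), HS6ST2 (-0.79 and 1.35), a heparan sulfate sulfotransferase, and HTRA1 (-2.94 and 0.74), a secreted serine protease. With libraries scaled by TMM in place of their totals, P3H2, ANKRD1, RNF125, ANGPTL4, CXCL2 and PINLYP kept their directions but missed the threshold in one line. With no minimum size, 1744 genes had a ratio above 0 in WT and below 0 in CD33KO and 1481 the reverse. Low levels touch many members: 9 of the 26 were under 5 CPM in both WT groups and 7 in both CD33KO groups, and 2 and 2 of the 10. Exons of 6 members overlap those of another counted gene. ANGPTL4 overlaps RAB11B-AS1 on the opposite strand, whose highest group mean was 16.0 CPM, and SLC13A3 overlaps TP53RK on the same strand, at 38.1 CPM; the strand setting of the count is not given in the sources used here, so reads of such pairs may not be told apart.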

How the data were processed

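RNA of THP1 macrophages was made into 3' end libraries (QuantSeq, 100 ng of total RNA, per the labels' protocols). The authors deposited one table of unnormalized whole-number counts of reads. Tools listed in the submitters' processing notes are featureCounts (Subread 2.0.0), STAR 2.7.3a, bcl2fastq and R 3.6.1 with DESeq2 1.26.0, for genome hg38, without roles; annotation release, strand setting and treatment of duplicate reads are not given in the sources used here. A 3' tag counts a transcript near its end, so levels do not scale with length. Totals ran from 2024032 to 6269304 counts, so 5 CPM is about 10 reads in the smallest library. Of 60617 identifiers, 60261 were found in the table of gene names, and 42000 had a symbol there. No 2 libraries were identical or agreed within sampling noise.

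The members and gene lists were chosen with earlier results of these data known. Ratios used 0.5 CPM as pseudocount. One fit over all 23 libraries, with a mean per group, used filterByExpr, TMM and the quasi-likelihood test of edgeR 4.0.16 in R 4.3.3, with Benjamini-Hochberg adjustment over 13098 genes at 0.05; it was checked on simulated data. Alternatives used DESeq2 1.42.0, its size factors, no filter, a replicate term, and each library left out. Genes were named by a rule: all 10 of the smaller set, and of the larger one the 10 with the largest weaker ratio, the 5 most abundant, list members and those nearest the threshold; other names were added after their values were seen. The values of 1 gene are not reported here.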

Additional observations from a re-analysis of the deposited data

Results flagged for a closer look

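In 11 of the 144 gene and group combinations of the 36 members, 1 library lay far from the others of that group (gap to the nearest library divided by the group's range, past Dixon's 95% critical value); chance alone gives about 1 in 20. CD33KO shCTRL replicate 2 was the library in 3 of them: CXCL2 was at 47.6 CPM there with the nearest other library at 76.2, G0S2 at 48.5 with the nearest at 67.2, and ANGPTL4 at 72.3 with the nearest at 52.3. In the same group GPR176 was at 17.6 CPM in replicate 1 (nearest 19.2) and PDE2A at 4.53 in replicate 5 (nearest 2.93). PDE2A also stood apart in WT shCTRL replicate 4, at 5.26 CPM (nearest 7.73), and in CD33KO shPTPN6 replicate 1, at 2.79 (nearest 5.82). CXCL2 was at 2.15 CPM in WT shCTRL replicate 5 (nearest 1.31). P2RX5 was at 5.81 CPM in CD33KO shPTPN6 replicate 6 (nearest 2.47), and SLC13A3 at 1.51 in WT shPTPN6 replicate 5 (nearest 0.587). PINLYP was at 230 CPM in WT shCTRL replicate 6 (nearest 195). Without CD33KO shCTRL replicate 2, 24 of the 26 and 9 of the 10 genes still met the rule.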

How the results depend on the processing

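The number of members depended on the settings of the rule. The 26 genes higher in WT and lower in CD33KO became 41 with a pseudocount of 0.1 CPM and 11 with 2 CPM, 50 with a threshold of 0.6 and 12 with 1, and 10 when 5 CPM was required in each line, an alternative added after seeing the data. The 10 of the other direction became 5 with a pseudocount of 2 CPM, 6 with a mean of 10 CPM, 23 with a threshold of 0.6, 2 with 1, and 6 with 5 CPM in each line. Leaving out 1 library at a time gave 23 to 28 and 8 to 12 genes, and 17 of the 26 and 4 of the 10 stayed members without every library in turn; CXCL2, ANGPTL4, RNF125 and STXBP5L were lost most often. TMM or DESeq2 size factors moved the median ratio of all genes from -0.07 and -0.08 to 0.01 and -0.00, and kept 21 or 20 of the 26 and 9 or 9 of the 10. P3H2, ANKRD1, RNF125, ANGPTL4, CXCL2 and PINLYP missed the threshold under both, and CLMP under the second. In the fit, all 972 alternative values of single members for the difference between lines kept their direction and side of the threshold, and counts of calls stayed within 1.5 times. The members' log2 ratios moved by more than the spread between libraries in 9 values in WT and 3 in CD33KO, with a pseudocount of 0.1 or 2 CPM and none reversed; in WT C1QTNF1 went to 1.67 or 0.36 and ANKRD1 to 1.91 or 0.58, and in CD33KO CD101 went to -2.12 or -0.70. Replicate numbers did not pair the libraries: of 33 same-numbered pairs 0 correlated above 0.1 (-0.05 to 0.03), and 3 of 23 libraries correlated best with their own number. With the replicate number as a block, 3626 genes were called for the difference between lines in place of 3717, and 36 of 36 members. In the smallest library, of 2024032 counts, a member near 1 CPM rests on about 2 reads.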
